A study of Mus musculus with 21 samples.

Results

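The enzymes that add, copy and remove DNA methylation in the mouse were followed as a set of 10 genes through the differentiation of pluripotent stem cells towards blood. The set was chosen by name and by role: Dnmt1 and Uhrf1 for maintenance, Dnmt3a, Dnmt3b and Dnmt3l for de novo methylation, Tet1, Tet2 and Tet3 for oxidation, and Zfp57 and Trim28 for the protection of imprints. All 10 were among the 27968 genes of the table of sorted cells and among the 19321 genes with values in the table of cocultured cells. RNA-seq was measured in 21 libraries, 3 in each of 7 groups, and each value is an FPKM, the reads of a gene scaled by its length and by the size of the library.

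The study asked whether cells resembling hematopoietic stem cells could be made from mouse pluripotent stem cells (PSCs) in a 3D peptide culture followed by coculture with OP9, a mouse bone marrow stromal line. The 15 libraries of sorted cells held undifferentiated mESC, labelled 129/ola, sorted on the surface antigen SSEA-1, and D5-LSKCD201+ and D5-LSKCD201- cells, which were sorted from 129/ola coculture on day 5. They also held LSKCD201+ cells of C57BL/6 mice from adult bone marrow (BM-LSKCD201+) and from fetal liver (FL-LSKCD201+). LSK stands for cells without lineage markers that carry Sca-1 and c-kit, and CD201 (EPCR, the product of Procr) marks hematopoietic stem cells in marrow and fetal liver. The other 6 libraries held total cells on day 5 after the 3D culture was replated on OP9 (3D+OP9) or on 0.1% gelatin without stroma (3D+0.1%gelatin), both of the 129/ola background and neither sorted for LSK. No genetic change was made in any group. Strain and source cannot be told apart, since BM-LSKCD201+ and FL-LSKCD201+ are C57BL/6 and all other groups are 129/ola per the labels, whereas the methods name stem cells of both strains. The study calls the sorted-cell libraries biological replicates without giving the animals or cultures behind each, and it describes the data shown together with the coculture RNA-seq as coming from independent experiments, without tying single libraries to them. In such bulk libraries, fewer cells of a type and less RNA per cell cannot be told apart.

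Methylation of cytosine in CpG dinucleotides is copied onto the new strand after replication by DNMT1, which UHRF1 brings to hemimethylated sites. DNMT3A and DNMT3B place new methylation, DNMT3L lacks catalytic activity and stimulates both, and the TET enzymes oxidise methylcytosine as a step towards its loss. ZFP57 binds a methylated motif at imprinted regions and recruits TRIM28 (KAP1), the shared corepressor of the KRAB zinc finger proteins. In blood, loss of Dnmt3a or Tet2 expands the stem cell pool, and Dnmt1 is required for stem cell self-renewal. Only RNA was measured here, and no methylation values were available for these cells.

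The sort markers were in place, but the label of blood stem cells was met only in part by D5-LSKCD201+. D5-LSKCD201+ held Procr at 59.7 ± 2.03 FPKM (SD, n = 3), while D5-LSKCD201- held it at 3.48 ± 0.411, and Kit and Ly6a (Sca-1) were at 44.5 and 61.3 FPKM in D5-LSKCD201+ against 28.8 and 32.6 in D5-LSKCD201-. Ptprc, which encodes the pan-leukocyte antigen CD45, was at 0.409 ± 0.167 FPKM in D5-LSKCD201+, against 66.8 in BM-LSKCD201+ and 43.5 in FL-LSKCD201+, and the stem cell factors Myb and Hlf were at 0.448 and 0.145. These were the 3 of 8 hematopoietic markers under 0.5 FPKM there. The 8 summed to 66.2 to 66.6 FPKM in D5-LSKCD201+, of which Itga2b (CD41) made up 45.2, and to 22.6 to 25.2 in D5-LSKCD201-, 519 to 613 in FL-LSKCD201+ and 881 to 903 in BM-LSKCD201+. The sum did not stand for the single markers. By the thresholds given below, 2 of 7 tested were higher in D5-LSKCD201+ than in D5-LSKCD201- and 3 were lower. Of all genes, 10.8% were higher and 13.9% lower, and the median difference of the 7 markers was -0.21. Only Itga2b had a higher mean in D5-LSKCD201+ than in both native groups, and the other 7 had lower means than in either. The endothelial cadherin Cdh5 was at 70.8 ± 3.02 in D5-LSKCD201+ and at most 1.60 in any library of marrow or fetal liver. D5-LSKCD201- cells kept pluripotency genes, with Pou5f1 at 221 ± 57.1 FPKM against 426 in mESC and 2.34 in D5-LSKCD201+. The summed FPKM of 9 pluripotency markers was 3773 to 4273 in D5-LSKCD201-, 6880 to 7444 in mESC and 24.6 to 33.1 in D5-LSKCD201+.

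In 4 groups 1 library stood apart from the others, namely BM-LSKCD201+ replicate 1, FL-LSKCD201+ replicate 1, D5-LSKCD201- replicate 2 and 3D+OP9 replicate 3. In each of these groups the other two libraries were far closer to each other, and the calls of members that they change are given with and without them. Only FPKM were used, so depth is unknown. A gene was called higher or lower, or said to rise or fall, when limma gave an adjusted p under 0.05 (Benjamini-Hochberg over all genes tested in that comparison) and the difference was at least 1 on the log2(FPKM + 1) scale, which understates the change of genes at low levels. All differences below are on that scale.

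The promoters of the 10 genes differ in their content of CpG, the dinucleotide on which these enzymes act. In the RefSeq annotation of GRCm38.p6 all 10 had at least 1 window of 250 bases upstream of a start, and 32851 such windows held a median of 6 CpG (quartiles 2 to 16). The windows of Dnmt3l held 3 to 5 CpG and those of Zfp57 held 3 to 7. The windows of Dnmt3b and Tet2 held 21 and 51, the latter more than 99.9% of all windows. Windows of Dnmt1, which was transcribed in every group, held 2, 7 and 26 and those of Uhrf1 10 and 30. A window of each of 4 genes is shown, since Dnmt3l and Zfp57 are the members with the lowest levels in marrow and fetal liver cells, and Dnmt3b and Tet2 are examples with many CpG. The sequences are given 5′ to 3′ on the strand of the gene, in lower case with every CpG in capitals: Dnmt3l at chr10:78049592-78049841 (plus strand, 1 of 3 starts), Zfp57 at chr17:37000913-37001162 (plus, 1 of 3 starts), Dnmt3b at chr2:153649199-153649448 (plus) and Tet2 at chr3:133544391-133544640 (minus).
Dnmt3l: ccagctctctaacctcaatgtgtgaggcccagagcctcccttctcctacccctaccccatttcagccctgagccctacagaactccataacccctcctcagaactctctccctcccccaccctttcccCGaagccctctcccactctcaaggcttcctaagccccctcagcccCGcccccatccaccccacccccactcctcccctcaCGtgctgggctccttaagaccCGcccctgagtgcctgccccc
Zfp57: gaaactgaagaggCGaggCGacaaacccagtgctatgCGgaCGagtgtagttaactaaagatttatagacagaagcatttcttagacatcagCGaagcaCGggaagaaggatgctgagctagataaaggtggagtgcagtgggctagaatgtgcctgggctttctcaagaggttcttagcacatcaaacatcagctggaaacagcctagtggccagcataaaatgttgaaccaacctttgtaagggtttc
Dnmt3b: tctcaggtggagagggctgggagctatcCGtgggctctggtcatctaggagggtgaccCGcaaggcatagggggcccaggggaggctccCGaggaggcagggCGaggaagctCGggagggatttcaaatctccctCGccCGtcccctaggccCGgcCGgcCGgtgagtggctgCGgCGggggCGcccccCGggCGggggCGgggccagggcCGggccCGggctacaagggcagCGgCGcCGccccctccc
Tet2: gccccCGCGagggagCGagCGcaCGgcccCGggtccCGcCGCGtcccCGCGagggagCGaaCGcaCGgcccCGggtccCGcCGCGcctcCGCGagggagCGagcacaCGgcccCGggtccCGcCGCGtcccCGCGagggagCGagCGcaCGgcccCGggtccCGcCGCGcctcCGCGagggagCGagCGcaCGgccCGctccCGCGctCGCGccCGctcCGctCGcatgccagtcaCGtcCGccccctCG

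The words TTTCCCGC, TTTGGCGC and TTTCGCGC, which are forms of the binding motif of the E2F factors of the cell cycle, were searched on both strands in the same windows, together with the octamer ATGCAAAT. The Uhrf1 window is shown because it held TTTCGCGC, printed in capitals, on the strand of the gene at chr17:56304063-56304312 (plus strand, 1 of 2 starts).
Uhrf1: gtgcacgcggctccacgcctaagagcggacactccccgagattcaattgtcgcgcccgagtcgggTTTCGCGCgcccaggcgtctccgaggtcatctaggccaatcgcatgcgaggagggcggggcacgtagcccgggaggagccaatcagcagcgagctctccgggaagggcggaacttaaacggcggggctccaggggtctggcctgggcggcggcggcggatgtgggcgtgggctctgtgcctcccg
The other match was in 1 of 3 windows of Dnmt1, on the opposite strand, so both maintenance genes held that word. It was in 0.256% of all windows and any of the 3 words in 1.53%. The octamer was in no window of the 10 genes and in 1.6% of all windows. A match of letters is a description and no evidence of binding.

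The maintenance genes were transcribed in all 7 groups and were lowest in marrow cells among the sorted groups. Dnmt1 (chr9:20907209-20959888, minus strand, GENCODE M21 on GRCm38, as for all genes below) was at 52.7, 54.8 and 53.6 FPKM in the 3 mESC libraries and at 38.1, 39.6 and 37.0 in D5-LSKCD201+. It was at 43.7, 33.5 and 42.8 in D5-LSKCD201-, where replicate 2 is the lowest and the range spans that of D5-LSKCD201+. FL-LSKCD201+ held 46.5, 40.7 and 40.3, and BM-LSKCD201+ held 23.4, 21.6 and 23.9, below every other library. The order of the means was mESC, FL-LSKCD201+, D5-LSKCD201-, D5-LSKCD201+ and BM-LSKCD201+, and the steps within the middle 3 did not pass the test (adjusted p = 0.563 and 0.668, limma). Without D5-LSKCD201- replicate 2, D5-LSKCD201+ was 0.17 below D5-LSKCD201- (adjusted p = 0.00863, limma). D5-LSKCD201+ was 0.71 above BM-LSKCD201+ (adjusted p = 1.46e-05, limma) and 0.48 below mESC (adjusted p = 3.65e-06), both under 1 on the log2 scale. Against mESC only the marrow cells passed both thresholds, at -1.19.

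Uhrf1 (chr17:56303321-56323486, plus strand), which recognises hemimethylated DNA and brings in DNMT1, showed the same low level in marrow. Its FPKM was 102, 108 and 107 in mESC, and 72.5, 81.5 and 76.7 in D5-LSKCD201+. D5-LSKCD201- held 115, 87.7 and 113, all above D5-LSKCD201+, and the difference of -0.44 (SE 0.111, adjusted p = 0.01, limma) did not reach 1. FL-LSKCD201+ held 99.8, 68.9 and 72.0, which spans D5-LSKCD201+, and BM-LSKCD201+ held 24.7, 18.3 and 18.7. Uhrf1 rose by 1.86 (SE 0.115, adjusted p = 2.81e-06, limma) in D5-LSKCD201+ against BM-LSKCD201+ and by 1.91 in FL-LSKCD201+ against BM-LSKCD201+. The level of Uhrf1 per level of Dnmt1 was 2.01 ± 0.0952 in D5-LSKCD201+, 1.97 ± 0.0292 in mESC and 0.894 ± 0.144 in BM-LSKCD201+ (SD, n = 3 each), where the libraries of BM-LSKCD201+ ran from 0.780 to 1.06. This ratio was highest in D5-LSKCD201- at 2.63 ± 0.0156, with libraries from 2.62 to 2.65, and was 1.88 ± 0.240 in FL-LSKCD201+.

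Proliferation genes had a similar order. The summed FPKM of 13 proliferation markers was 2450 to 2515 in mESC, 1973 to 2123 in D5-LSKCD201-, 1509 to 1741 in FL-LSKCD201+, 1290 to 1308 in D5-LSKCD201+ and 677 to 695 in BM-LSKCD201+. Between D5-LSKCD201+ and BM-LSKCD201+, 6 of the 13 were higher by both thresholds (17.5% of all genes higher), and between D5-LSKCD201+ and D5-LSKCD201- 1 of the 13 was lower (13.9% of all genes lower). Their part in the levels of Dnmt1 and Uhrf1 was not tested.

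**Figure D1:**
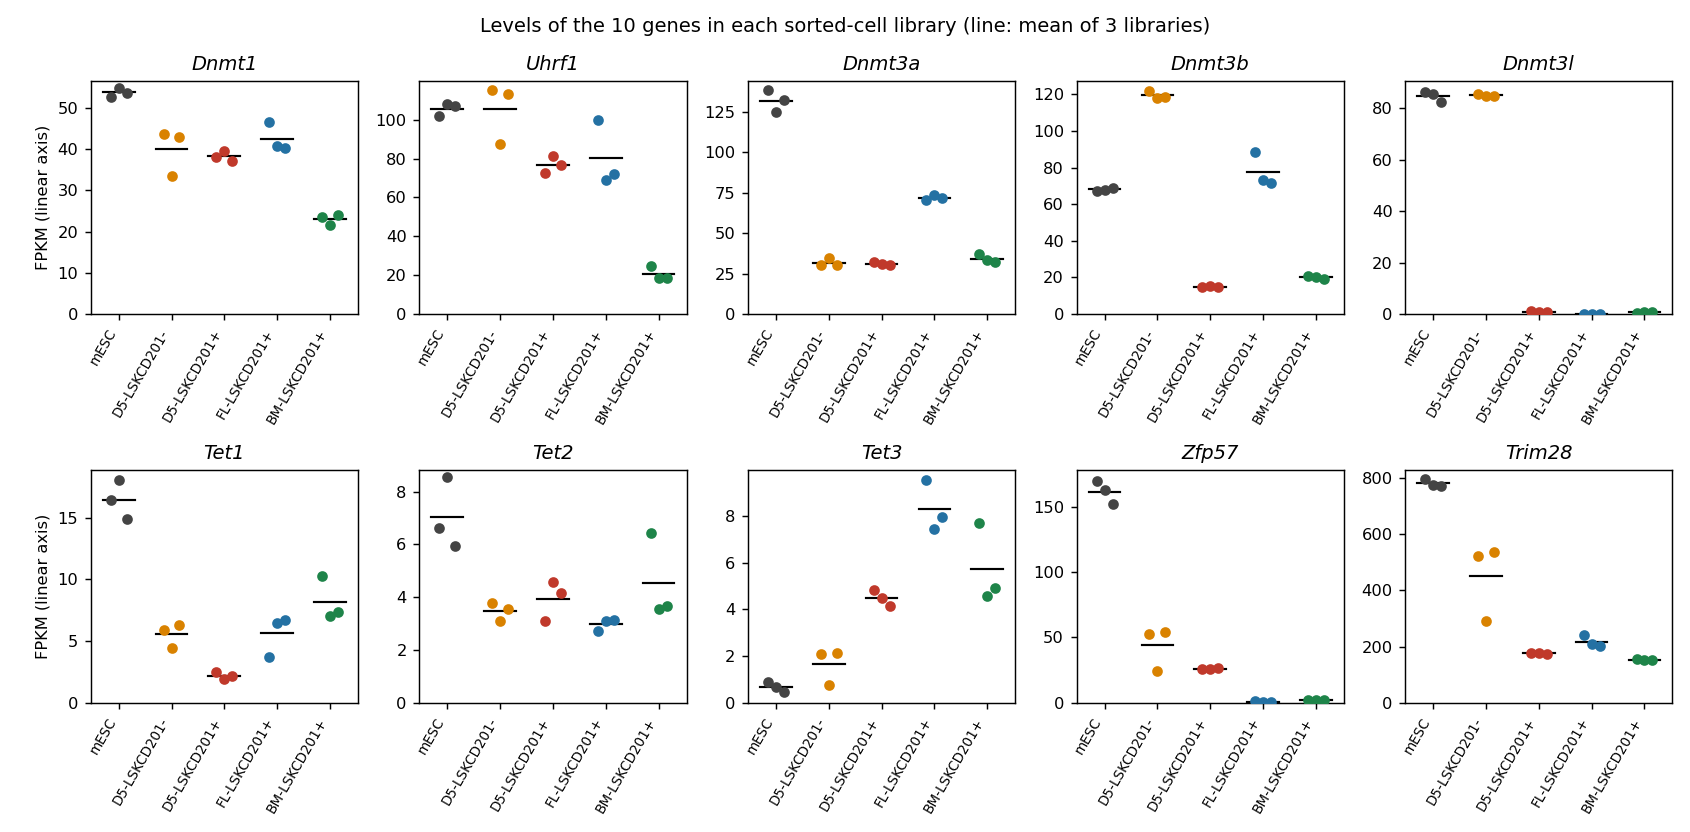
FPKM of the 10 genes in the 15 libraries of sorted cells, 1 panel per gene, with a point per library and a bar at the mean of each group of 3. Dnmt3l and Zfp57 are near the floor in BM-LSKCD201+ and FL-LSKCD201+, Dnmt3b is high in D5-LSKCD201- and low in D5-LSKCD201+, and Tet3 alone is lowest in mESC.

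Counted over the set, the D5-LSKCD201+ cells had 1 member higher and 4 lower than D5-LSKCD201- among 10 tested, where 24.7% of 13691 genes were called in either direction. In 6 of the 10 the libraries of the groups did not overlap, against 73.6% of all genes. Without D5-LSKCD201- replicate 2, Tet3 was no longer called higher (0.82) and Zfp57 was called lower (-1.01). Against mESC, 1 member was higher and 6 were lower in D5-LSKCD201+ (37.6% of genes called). Against FL-LSKCD201+, 1 was higher and 3 lower (34.7% called), and against BM-LSKCD201+ 2 were higher and 1 lower (44.7% called). These 4 comparisons share the D5-LSKCD201+ libraries and are not independent. The median difference of all genes tested lay between -0.23 and -0.07 in them. The plot of differences against the other 4 groups shows that the members did not move as a block.

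**Figure D2:**
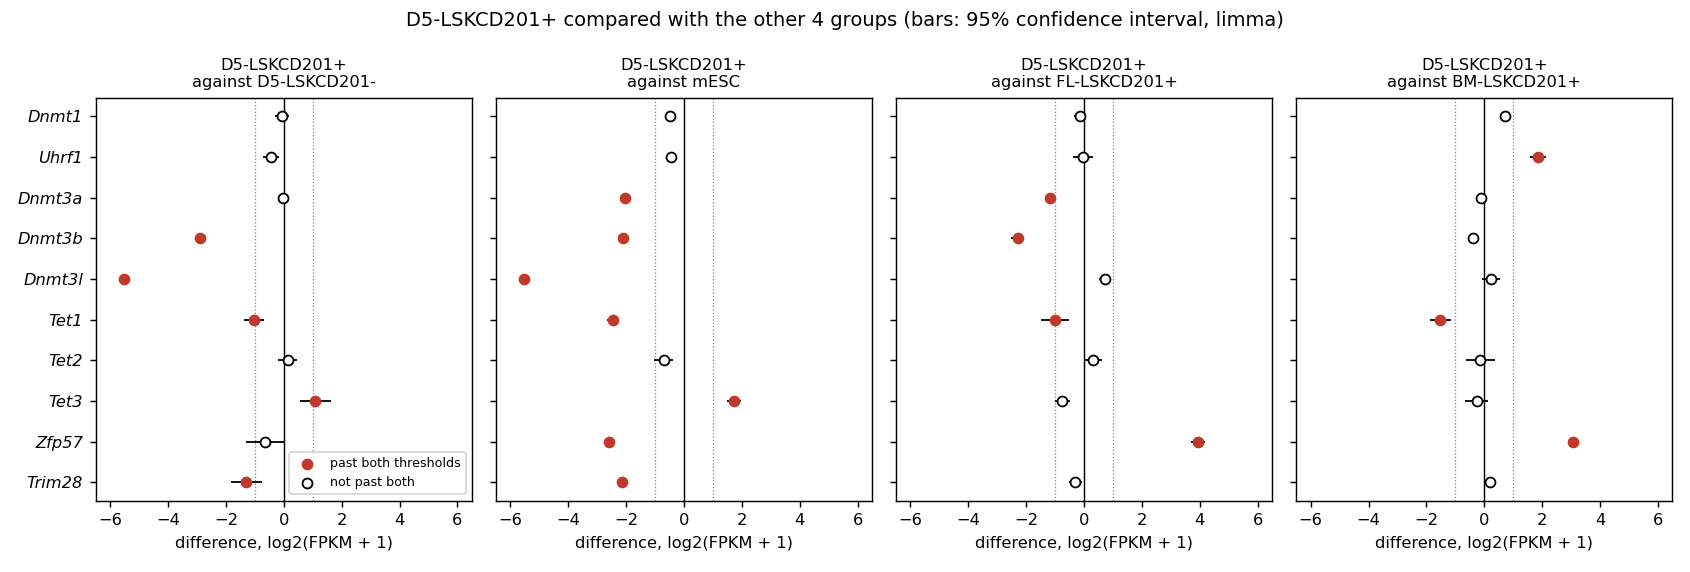
Difference in log2(FPKM + 1) between D5-LSKCD201+ and each of the other 4 groups of sorted cells for the 10 genes, with 95% confidence intervals from limma. Dnmt3l is -5.52 against both mESC and D5-LSKCD201- and 0.73 against FL-LSKCD201+, while Zfp57 is 3.93 above FL-LSKCD201+ and 2.59 below mESC.

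Dnmt3a (chr12:3806007-3914443, plus strand), the de novo methyltransferase of adult blood stem cells, was low in both day 5 groups and in marrow. It was at 138, 124 and 132 FPKM in mESC, and at 32.3, 30.8 and 30.1 in D5-LSKCD201+. The libraries of D5-LSKCD201- held 30.4, 34.8 and 30.2 and those of BM-LSKCD201+ 37.1, 33.1 and 32.3, so that the 3 groups lie side by side, while FL-LSKCD201+ was higher at 70.6, 73.5 and 71.4. Dnmt3a fell by 2.05 in D5-LSKCD201+ against mESC (adjusted p = 7.37e-10, limma), to 23.6% of the mESC mean, and by 2.02 in D5-LSKCD201- against mESC. It was 1.18 lower in D5-LSKCD201+ than in FL-LSKCD201+ (adjusted p = 4.74e-06, limma). The difference of -0.03 from D5-LSKCD201- (adjusted p = 0.758, 95% confidence interval -0.20 to 0.15) did not pass the test. Against BM-LSKCD201+ the difference was -0.13 for D5-LSKCD201+ and -0.10 for D5-LSKCD201-. Neither was called, both changed sign with TPM scaling, and equal levels are not shown by this. An antisense gene, Dnmt3aos, overlaps 133 of the 16642 exon bases of Dnmt3a and was at 0 in all groups but BM-LSKCD201+, where it reached 0.210 FPKM.

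Dnmt3b (chr2:153649450-153687730, plus strand), the de novo enzyme most prominent in the early embryo, separated the day 5 groups. The libraries of D5-LSKCD201+ held 14.5, 15.5 and 14.9 FPKM, whereas those of D5-LSKCD201- held 122, 118 and 118, with a wide gap between the groups. It was at 67.4, 68.0 and 68.9 in mESC, at 88.5, 73.1 and 71.8 in FL-LSKCD201+ and at 20.9, 20.1 and 19.0 in BM-LSKCD201+. D5-LSKCD201- was therefore the highest group and D5-LSKCD201+ the lowest, with no overlap between neighbours, although FL-LSKCD201+ and mESC did not differ by the test (adjusted p = 0.118, limma). Dnmt3b fell by 2.91 (SE 0.0528, adjusted p = 4.96e-08, limma) in D5-LSKCD201+ against D5-LSKCD201-, by 2.11 against mESC and by 2.29 against FL-LSKCD201+. Against BM-LSKCD201+ it was 0.39 lower (adjusted p = 0.000533), and in D5-LSKCD201- it was 0.80 above mESC (adjusted p = 1.19e-05), both past the adjusted p but under 1.

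The share of Dnmt3b in the sum of Dnmt3a and Dnmt3b gives the balance of the catalytic enzymes. It was 79.0% ± 1.54 (SD, n = 3) in D5-LSKCD201-, 51.9% ± 3.24 in FL-LSKCD201+, 37.0% ± 0.876 in BM-LSKCD201+, 34.1% ± 1.298 in mESC and 32.5% ± 1.33 in D5-LSKCD201+. The libraries of D5-LSKCD201- lay above and apart from those of all other sorted groups (exact permutation p = 0.1, two-sided, against D5-LSKCD201+ and against mESC, which is the smallest that 3 libraries against 3 can give). Those of D5-LSKCD201+ and mESC overlapped (exact permutation p = 0.3), although the sum of both genes was 46.1 FPKM in D5-LSKCD201+ and 199.8 in mESC.

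Dnmt3l (chr10:78041947-78063622, plus strand), the regulatory partner known from germ cells and embryonic stem cells, was high in mESC and D5-LSKCD201- and low in the 3 groups of LSKCD201+ cells. It was at 86.4, 85.5 and 82.7 FPKM in mESC and at 85.8, 84.98 and 84.8 in D5-LSKCD201-, which overlap. It was at 1.02, 0.798 and 0.813 in D5-LSKCD201+, at 0.327, 0.744 and 0.748 in BM-LSKCD201+ and at 0.166, 0.095 and 0.120 in FL-LSKCD201+. Dnmt3l fell by 5.52 (SE 0.0776, adjusted p = 3.34e-08, limma) in D5-LSKCD201+ against D5-LSKCD201-. It was thus 100.4% of its mESC mean in D5-LSKCD201- but 1.03% in D5-LSKCD201+. The 0.73 by which it exceeded FL-LSKCD201+ passed the adjusted p (0.000228, limma) but not the fold, and the 0.23 by which it exceeded BM-LSKCD201+ did not pass (adjusted p = 0.135). Against FL-LSKCD201+ it passed the filter only through D5-LSKCD201+ and so had to differ, and nothing is read from that p.

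Dnmt3l shares 67 of its 2988 exon bases with Aire on the other strand, and counting by strand was not stated. Aire was at 2.07 FPKM in mESC, at 15.8 in D5-LSKCD201- and at 0.234 in D5-LSKCD201+, so that it was high where Dnmt3l was high among the day 5 groups only. The level of Dnmt3l per level of Dnmt3b was 0.0587 in D5-LSKCD201+, 1.25 in mESC and 0.713 in D5-LSKCD201-. Between the day 5 groups all 9 pluripotency markers were called lower in D5-LSKCD201+ (13.9% of all genes lower). Of these, 4 had a mean under 0.5 FPKM in D5-LSKCD201+, passed the filter only through D5-LSKCD201- and so had to differ. The summed FPKM of primordial germ cell markers was 114 to 121 in D5-LSKCD201-, 25.9 to 28.7 in mESC and 1.27 to 1.64 in D5-LSKCD201+. The part of either in the levels of Dnmt3b and Dnmt3l was not tested.

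The TET genes differed in opposite directions. Tet1 (chr10:62804570-62908996, minus strand), the main TET gene of embryonic stem cells, was at 16.4, 18.1 and 14.9 FPKM in mESC and at 2.45, 1.91 and 2.20 in D5-LSKCD201+, the lowest libraries of all. It was at 5.89, 4.42 and 6.31 in D5-LSKCD201-, at 3.69, 6.45 and 6.73 in FL-LSKCD201+ and at 10.3, 7.02 and 7.32 in BM-LSKCD201+. No library of another group reached as low as D5-LSKCD201+. Tet1 fell in D5-LSKCD201+ against mESC by 2.45 (adjusted p = 1.46e-08, limma) and against BM-LSKCD201+ by 1.52 (adjusted p = 3.9e-05). Against D5-LSKCD201- it was lower by 1.03 (SE 0.141, adjusted p = 0.000491, limma) and against FL-LSKCD201+ by 1.02 (SE 0.202, adjusted p = 0.0032). Both of these lie close to the threshold of 1 and miss it under quantile normalization, at -0.91 and -0.83. Both also miss it without D5-LSKCD201+ replicate 2 (-0.96 each), the first without D5-LSKCD201- replicate 1 (-0.98) or 3 (-0.94), and the second without FL-LSKCD201+ replicate 2 (-0.92) or 3 (-0.89).

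Tet2 (chr3:133463679-133545139, minus strand), often mutated in clonal blood disorders, varied least among the TET genes. Its FPKM was 5.92 to 8.54 in mESC, 3.55 to 6.42 in BM-LSKCD201+, 3.10 to 4.59 in D5-LSKCD201+, 3.09 to 3.76 in D5-LSKCD201- and 2.71 to 3.13 in FL-LSKCD201+. Every neighbouring pair in that order overlapped. D5-LSKCD201+ was 0.70 below mESC (adjusted p = 0.00168, limma), under 1 on the log2 scale, and its differences from the other 3 sorted groups did not pass the adjusted p (0.0788 to 0.559).

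Tet3 (chr6:83362373-83459084, minus strand), the TET enzyme of the zygote and of several differentiated tissues, ran the other way. It was at 0.870, 0.673 and 0.449 FPKM in mESC, at 4.84, 4.47 and 4.15 in D5-LSKCD201+ and at 2.08, 0.776 and 2.12 in D5-LSKCD201-, where replicate 2 lies within the mESC range. It was highest at 9.52, 7.42 and 7.95 in FL-LSKCD201+, followed by 7.69, 4.55 and 4.91 in BM-LSKCD201+, which overlaps D5-LSKCD201+. Tet3 rose by 1.73 (adjusted p = 4.29e-07, limma) in D5-LSKCD201+ against mESC and by 1.09 (SE 0.223, adjusted p = 0.00379) against D5-LSKCD201-, a difference of 0.82 without D5-LSKCD201- replicate 2. It was the only member called higher in D5-LSKCD201+ in these 2 comparisons. The difference of -0.76 from FL-LSKCD201+ passed the adjusted p (0.000701, limma) without reaching 1, and that of -0.26 from BM-LSKCD201+ did not pass (adjusted p = 0.189).

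As shares of the summed FPKM of the 3 genes, Tet1 made up 68.3% ± 1.92 (SD, n = 3) in mESC, 52.1% ± 1.65 in D5-LSKCD201-, 44.9% ± 2.37 in BM-LSKCD201+, 33.0% ± 8.499 in FL-LSKCD201+ and 20.7% ± 3.10 in D5-LSKCD201+. Tet3 made up 2.74% ± 0.7997 in mESC, 14.9% ± 4.82 in D5-LSKCD201- but 42.3% ± 3.796 among D5-LSKCD201+ libraries, with 49.4% ± 9.02 in FL-LSKCD201+ and 30.8% ± 0.711 in BM-LSKCD201+. For both genes the libraries of D5-LSKCD201+ did not overlap with those of mESC, D5-LSKCD201- or BM-LSKCD201+ (exact permutation p = 0.1 each), and they overlapped with FL-LSKCD201+ (exact permutation p = 0.2 for Tet1 and 0.3 for Tet3). The overlap of Tet1 came from FL-LSKCD201+ replicate 1 alone, at 23.2% against 38.0% and 37.8% in the other two, with 17.4% to 23.6% in D5-LSKCD201+. Without that library the Tet1 shares lie apart, while those of Tet3 still overlap. The sum itself was 24.2 FPKM in mESC and 10.6 in D5-LSKCD201+, with 10.7 in D5-LSKCD201-, 16.9 in FL-LSKCD201+ and 18.5 in BM-LSKCD201+. The day 5 groups thus held similar sums of differing composition.

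**Figure D3:**
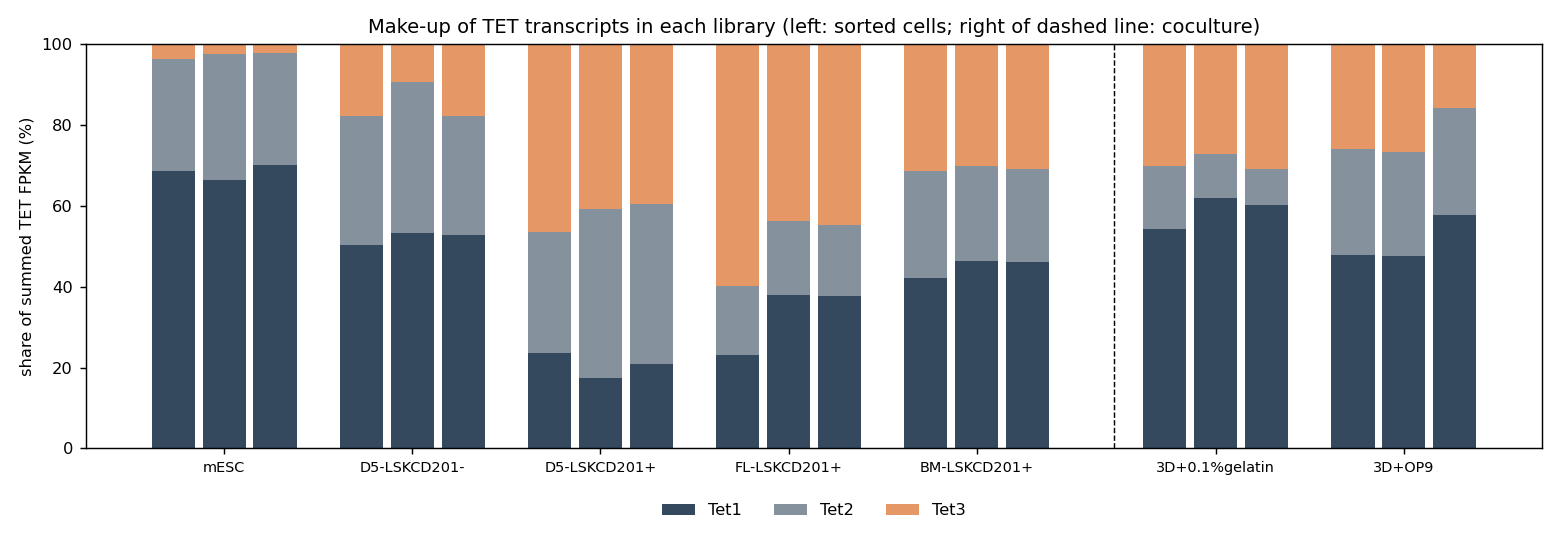
Share of Tet1, Tet2 and Tet3 in their summed FPKM, in percent, as 1 stacked bar for each of the 21 libraries. Tet1 takes the largest part in every mESC library and the smallest in every D5-LSKCD201+ library, and the coculture libraries, normalized separately, are shown to the right.

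Zfp57 (chr17:37001163-37010635, plus strand), which reads methylated imprints, set the day 5 cells apart from both sources of blood stem cells. It was at 170, 163 and 152 FPKM in mESC and at 25.6, 25.9 and 26.7 in D5-LSKCD201+. D5-LSKCD201- held 53.0, 24.6 and 54.0, so that replicate 2 lies just below D5-LSKCD201+ and the others well above. FL-LSKCD201+ held 0.930, 0.583 and 0.815, and BM-LSKCD201+ held 1.97, 2.35 and 2.42. Zfp57 was 3.93 higher in D5-LSKCD201+ than in FL-LSKCD201+ (adjusted p = 1.46e-07, limma) and 3.06 higher than in BM-LSKCD201+ (adjusted p = 2.98e-08), while it was 2.59 lower than in mESC (adjusted p = 1.48e-10). Against D5-LSKCD201- the difference was -0.65 (95% confidence interval -1.31 to 0.02, adjusted p = 0.0774, limma), and without D5-LSKCD201- replicate 2 it was -1.01 (adjusted p = 6.08e-07).

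Trim28 (chr7:12999114-13031035, plus strand), the corepressor that ZFP57 and other KRAB zinc finger proteins share, was the most abundant member in all 7 groups. It was at 797, 774 and 771.5 FPKM in mESC, at 523, 289 and 536 in D5-LSKCD201- and at 175, 177 and 174 in D5-LSKCD201+. FL-LSKCD201+ held 242, 208 and 200.5 and BM-LSKCD201+ held 156, 153 and 151. The fall of 1.297 on the log2 scale in D5-LSKCD201+ against D5-LSKCD201- (SE 0.224, adjusted p = 0.00165, limma) was 1.59 without D5-LSKCD201- replicate 2. Trim28 also fell by 2.15 against mESC (adjusted p = 2.98e-11, limma), whereas the differences from FL-LSKCD201+ (-0.30, adjusted p = 0.0209) and BM-LSKCD201+ (0.19, adjusted p = 0.00244) passed the adjusted p and stayed far under 1. In D5-LSKCD201- replicate 2 the pluripotency markers summed to 3773 FPKM, the lowest of its group, and the stromal markers to 34.7 against 67.2 and 65.8. Their part in the lower Zfp57, Trim28 and Tet3 of that library was not tested. Its Dnmt3l lay between the other libraries of the group, its Dnmt3b was close to theirs, and its Dnmt3a was the highest of the 3.

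The comparison of D5-LSKCD201- with mESC asks what remains of the stem cell pattern outside the CD201+ gate. No member was higher and 3 were lower (14.3% of 13596 genes called): Dnmt3a, Tet1 by 1.43 and Zfp57 by 1.94. The differences of Uhrf1 (-0.01, adjusted p = 0.923, limma) and Dnmt3l (0.01, adjusted p = 0.922) did not pass, and without D5-LSKCD201- replicate 2 that of Uhrf1 was 0.11 (adjusted p = 0.0426, limma). Against the blood cells, D5-LSKCD201- had 2 members higher and 2 lower than FL-LSKCD201+ (37.3% called) and 5 higher and 1 lower than BM-LSKCD201+ (49.3% called), with Dnmt3l 6.26 and 5.76 higher. Against FL-LSKCD201+, where its mean was 0.127 FPKM, Dnmt3l passed the filter only through D5-LSKCD201- and so had to differ. Trim28 was 0.998 above FL-LSKCD201+, just short of a call, and was called without D5-LSKCD201- replicate 2 (1.29) or without FL-LSKCD201+ replicate 1 (1.08), which makes 3 members higher.

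The sources of native stem cells differed as well. FL-LSKCD201+ had 3 members higher than BM-LSKCD201+ and none lower, of 9 tested, where 7.78% of genes were called higher and 11.3% lower, and Dnmt3l was below the filter of a mean of 0.5 FPKM. The 3 were Uhrf1 (1.91, adjusted p = 0.000113, limma), Dnmt3b (1.90, adjusted p = 1.29e-05) and Dnmt3a (1.05, adjusted p = 6.89e-05). Dnmt1 was 0.86 higher (adjusted p = 0.000268, limma), under 1, Zfp57 was 0.87 lower (adjusted p = 0.00121; called at -1.44 with a pseudocount of 0.1 and at -1.04 with TPM scaling), and the 3 TET genes did not pass the adjusted p. Of 13 proliferation markers, 8 were higher in FL-LSKCD201+, and globins and liver genes were in FL-LSKCD201+ too, with the erythroid markers summing to 8886, 19102 and 17945 FPKM and the hepatocyte markers to 338, 513 and 500. The 4 myeloid markers summed to 1613 to 1744 FPKM in FL-LSKCD201+ and 416 to 438 in BM-LSKCD201+, and 3 of them were higher. Their part in the result was not tested. Against mESC, FL-LSKCD201+ had 1 member higher and 4 lower (42.3% called) and BM-LSKCD201+ 1 higher and 7 lower (53.1% called). The higher one was Tet3 in both. Among the 4 lower in FL-LSKCD201+, Dnmt3l (0.127 FPKM there) passed the filter only through mESC and so had to differ. Tet2 is not among the 4, since its difference of -0.99995 fell just short of a call. It was called under 8 alternatives, at -1.28 to -1.02. Tet1 was 0.94 lower in BM-LSKCD201+ than in mESC, and 1.09 lower without BM-LSKCD201+ replicate 1, where it was called, which makes 8 members lower.

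The coculture libraries show the set in unsorted cells with and without stroma. Only Tet2 passed both thresholds, 1 of 10 members, where 2.62% of 12958 genes were called. It was at 3.31, 3.41 and 5.46 FPKM in 3D+OP9 and at 1.32, 1.11 and 0.820 in 3D+0.1%gelatin, without overlap. The difference was 1.26 (SE 0.189, adjusted p = 0.00967, limma). It was 1.07 (adjusted p = 0.00355) without 3D+OP9 replicate 3 and 1.27 with an adjusted p of 0.054 without 3D+0.1%gelatin replicate 2. The share of Tet2 in the TET sum was 26.2% ± 0.424 in 3D+OP9 and 11.7% ± 3.40 in 3D+0.1%gelatin (SD, n = 3, exact permutation p = 0.1).

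Zfp57 was 0.78 higher with OP9 (SE 0.120, adjusted p = 0.0103, limma), under 1, at 28.6, 33.9 and 38.2 FPKM against 17.99, 18.3 and 20.9. The libraries of the groups did not overlap in 4 of the 10 members, against 28.7% of all genes. The 3D+OP9 culture is grown on stroma, and markers of several cell types moved with the groups. The summed FPKM of endothelial markers was 69.3 to 84.1 in 3D+OP9 and 8.86 to 18.8 in 3D+0.1%gelatin, that of erythroid markers 29.2 to 81.9 and 0.92 to 4.37, that of stromal markers 55.2 to 64.4 and 25.6 to 36.5, and that of hematopoietic markers 22.2 to 28.6 and 6.84 to 7.73. Their part in the differences of Tet2 and Zfp57 was not tested.

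The differences of the de novo genes Dnmt3l and Dnmt3b in coculture moved when 1 library was left out. Dnmt3l was at 11.3, 11.8 and 55.7 FPKM in 3D+OP9 and at 4.16, 7.61 and 19.3 in 3D+0.1%gelatin, and its difference of 1.10 (95% confidence interval -0.50 to 2.70, adjusted p = 0.39, limma) was 0.37 without 3D+OP9 replicate 3. Dnmt3b was at 129, 123 and 238 FPKM in 3D+OP9 and at 182, 253 and 287 in 3D+0.1%gelatin. Its difference of -0.60 did not pass (adjusted p = 0.242, limma), whereas without 3D+OP9 replicate 3 it was -0.90 (adjusted p = 0.0168). Replicate 3 also held the highest Dnmt3a of its group (19.4 FPKM against 11.3 and 10.7) and the highest Tet1 (11.8 against 6.04 and 6.28). Its pluripotency markers summed to 1676 FPKM against 838 and 833, and those of 3D+0.1%gelatin to 1283 to 1373, so that this library stood above both. The part of such cells in its Dnmt3l and Dnmt3b was not tested.

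None of the other members passed the adjusted p between the coatings. Dnmt1 was at 52.2 to 62.7 FPKM in 3D+OP9 and 47.2 to 51.2 in 3D+0.1%gelatin (adjusted p = 0.198, limma), Uhrf1 at 88.1 to 93.8 and 84.0 to 88.9 (adjusted p = 0.448), Tet3 at 3.23 to 3.54 and 2.57 to 2.83 (adjusted p = 0.274) and Trim28 at 386 to 411 and 393 to 415 (adjusted p = 0.965). Dnmt1, Tet2, Tet3 and Zfp57 were the 4 without overlap. A p that misses the threshold does not show equal levels.

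**Figure D4:**
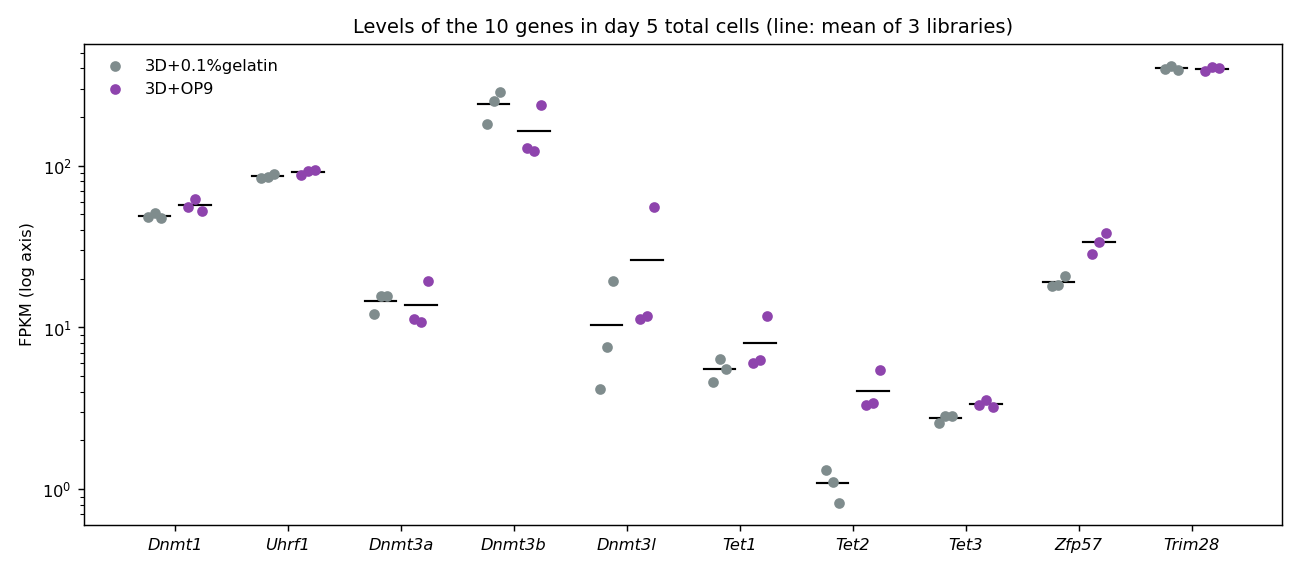
FPKM of the 10 genes in the 6 coculture libraries on a log axis, with a point per library for 3D+OP9 and 3D+0.1%gelatin. Tet2 separates the groups, and 3D+OP9 replicate 3 lies above the other 3D+OP9 libraries in Dnmt3a, Dnmt3b, Dnmt3l, Tet1 and Tet2.

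Around the set, 48 genes of the same pathway were listed by role, of which 46 could be tested between D5-LSKCD201+ and D5-LSKCD201-. There, 2 were higher and 10 lower (10.8% and 13.9% of all genes), with a median of -0.40 against -0.12 over all genes. Gadd45g, linked to repair-based demethylation, rose by 1.61 (114 FPKM against 36.9), and Mbd2, a reader of methylated CpG, by 1.35 (5.15 against 1.43 FPKM). The largest falls were in Dppa3 (5.77), which shields methylation from TET activity in the zygote, in Prdm14 (3.11), which represses de novo methylation in naive stem cells, and in Usp7 (2.04), a deubiquitinase that binds DNMT1 and UHRF1. Dppa3 was at 69.8 FPKM in D5-LSKCD201-, at 7.29 in mESC and at 0.296 in D5-LSKCD201+, and Prdm14 at 7.98, 5.73 and 0.0439. Both passed the filter only through the group where they are high and so had to differ. By role, 2 of 5 maintenance partners were lower (Usp7 and Hells), 4 of 10 base excision and deamination genes were lower and 1 higher, and none of 4 methyl donor genes or 6 histone methyltransferase partners was called. Of the deamination genes, Apobec1 (0.409 against 2.64 FPKM) passed the filter only through D5-LSKCD201- and so had to differ.

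Against FL-LSKCD201+, 2 of 43 were higher in D5-LSKCD201+ and 11 lower (15.1% and 19.6% of all genes), with a median of -0.52 against -0.16. Those higher were Idh1, which makes the 2-oxoglutarate that TET enzymes need (2.32, 146 ± 4.98 FPKM against 28.6 ± 4.67), and Gadd45g (2.17). The largest falls were in the cytidine deaminase Apobec1 (2.38), in Usp7 (1.58) and in Ahcy (1.49), which clears the product that inhibits methyltransferases. Apobec1 (0.409 against 6.33 FPKM) passed the filter only through FL-LSKCD201+ and so had to differ. Idh1 was also 3.07 higher than in BM-LSKCD201+, where 3 of 44 were higher and 11 lower (17.5% and 27.2% of all genes) with a median of -0.55 against -0.23, and Suv39h1 (1.44) and the heterochromatin protein Cbx5 (1.17) were the others that rose. The largest falls against marrow were in Apobec1 (3.52, at 15.2 FPKM in BM-LSKCD201+, through which alone it passed the filter), in Gadd45b (3.37, from 46.98 to 3.65 FPKM), a relative of Gadd45g, and in the methyl-CpG reader Zbtb38 (2.29). Against mESC, 4 of 45 were higher and 16 lower (19.5% and 18.1% of all genes). The remodeler Hells, a partner of maintenance, fell there by 2.99, from 109 to 12.8 FPKM, Usp7 by 3.09 and Prdm14, which passed the filter only through mESC, by 2.69. Gadd45g (2.91), the histone methyltransferase Suv39h1 (1.63) and Mbd2 (1.61) rose most.

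In the coculture, 1 of 46 was called (2.62% of all genes), again Gadd45g, at 35.4, 38.7 and 29.4 FPKM in 3D+OP9 and at 14.6, 7.66 and 12.4 in 3D+0.1%gelatin (difference 1.53, adjusted p = 0.0077, limma).

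**Figure D5:**
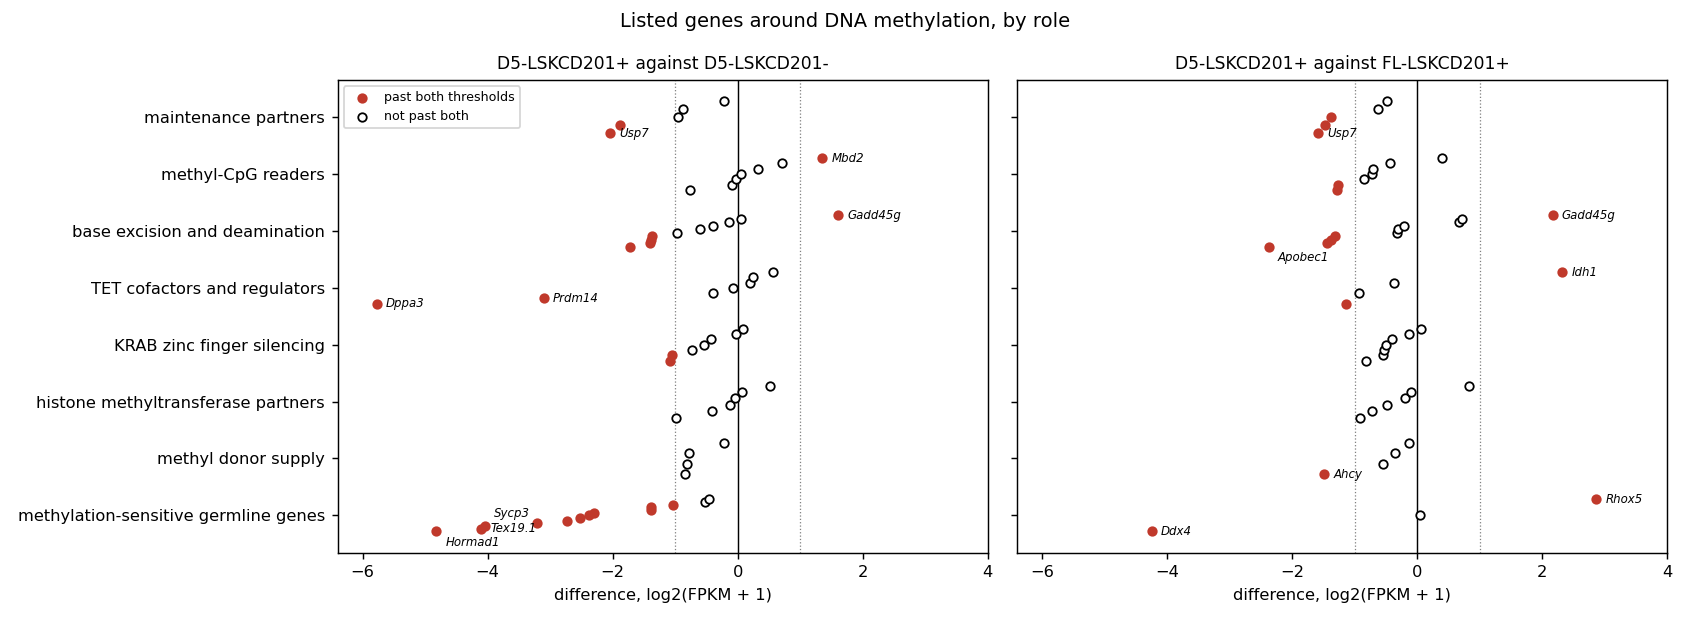
Differences in log2(FPKM + 1) of the listed pathway and germline genes, by role, between D5-LSKCD201+ and D5-LSKCD201- (left) and between D5-LSKCD201+ and FL-LSKCD201+ (right), with filled points past both thresholds. Dppa3 and Prdm14, which entered the test through D5-LSKCD201- alone, lie far to the left in the first panel, and Gadd45g lies to the right in both.

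Germline genes that are silenced through promoter methylation in most somatic cells were listed as a readout of the pathway, 16 in all. Of 13 that could be tested between D5-LSKCD201+ and D5-LSKCD201-, 11 were lower and none higher (13.9% and 10.8% of all genes), among them Hormad1 (-4.82), Tex19.1 (-4.11) and Sycp3 (-4.04), which act in meiosis or in the germ line. In D5-LSKCD201+ the mean was under 0.5 FPKM for 14 of the 16, but for only 3 of them among D5-LSKCD201- libraries, so most of those tested passed the filter through D5-LSKCD201- and had to differ, and nothing is read from the count. The pluripotency and primordial germ cell markers given above moved in the same comparison, and their part in it was not tested. Between D5-LSKCD201- and mESC, 2 of 13 were higher (Dazl by 1.73 and Hormad1 by 1.58; 10.9% of all genes higher). Against FL-LSKCD201+ only 3 could be tested: Rhox5 was 2.87 higher in D5-LSKCD201+ (10.7 ± 1.43 FPKM against 0.600 ± 0.214) and the germ cell helicase Ddx4 was 4.24 lower (0.273 against 23.1 FPKM). Ddx4 passed the filter only through FL-LSKCD201+ and so had to differ. Its level in BM-LSKCD201+ was 15.8 FPKM.

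Across the 15 libraries of sorted cells, likeness to a member was taken as Pearson's r of log2(FPKM + 1) over 14457 genes. Since the libraries form 5 groups, r describes the order of groups and has no p. Among the members r was 0.93 for Dnmt1 and Uhrf1 (Spearman's rho = 0.80) and 0.90 for Dnmt3l and Trim28 (rho = 0.64), while rho was highest for Dnmt3l and Zfp57 (0.90, r = 0.83) and for Dnmt1 and Trim28 (0.88, r = 0.76). Tet3 ran against Dnmt3l (r = -0.93) and Zfp57 (-0.89). The genes most like Dnmt1 were Ppp1r8 (0.979), Lmnb1 (0.970) and Dlat (0.968), and those most like Dnmt3b were Aoah (0.987), Ifi30 (0.981) and Kif21a (0.976). Those most like Dnmt3a were Usp15 (0.937), Kat8 (0.936) and Fry (0.934), and among those most like Tet1 were Ddx21 (0.978) and Cebpz (0.969). For Tet2 the 3 highest were Uty (0.867), Tbc1d9 and Pde4a (0.859 each).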

How the data were processed

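Gene expression was measured by RNA-seq in 21 libraries. RNA was extracted with TRIzol and mRNA libraries were sequenced on an Illumina HiSeq X system. The deposited values are FPKM, which the authors made with HISAT2 2.0.5, StringTie 1.3.3 and Cuffdiff 1.3.0 per the submitters' processing notes, on GRCm38 (the notes also name mm9). The methods do not describe the coculture table separately, and its values are rounded to 2 decimals. The 2 tables were scaled apart from each other and were never mixed in a test. Counts were not used here, so the depth is unknown and the error given is the SD of 3 libraries. Rough depths from the steps of low values ran from 0.883 to 1.32 times that of mESC replicate 1.

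Groups and replicate numbers were taken from the labels. Values entered the fits as log2(FPKM + 1), the pseudocount being 1. In each of 11 comparisons limma 3.58.1 (trend, two-sided, R 4.3.3) was fitted to all genes whose mean reached 0.5 FPKM, with Benjamini-Hochberg adjustment over those genes. A call needed an adjusted p under 0.05 together with a log2 difference of 1 or more in size. The study names the sorted-cell libraries biological replicates, and speaks of independent experiments for the data shown with the coculture, but ties no library to an animal or culture. The p-values measure the spread between libraries. On simulated data with 4-fold changes, 95% of changed genes were recovered in D5-LSKCD201+ against D5-LSKCD201- (13484 genes) with 0.524% false calls, and 98% in 3D+OP9 against 3D+0.1%gelatin (12849 genes). The 200 changed genes were drawn only from genes above a set mean level, so recovery at low levels was not simulated. Family shares were compared by exact permutation. Same-numbered FL-LSKCD201+ and BM-LSKCD201+ libraries deviated together (correlations 0.24, 0.20 and 0.16), so these were treated as paired in the alternative fit with the replicate number as a block. Positions are from GENCODE M21 and promoters from RefSeq (GRCm38.p6). Shares, motifs and figures were made in Python 3.11.15 with pandas 2.3.3, scipy 1.17.1 and matplotlib 3.10.9.

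The members and lists were chosen with earlier results of these data known. Named from the lists are up to 3 genes with the largest change in each direction that passed both thresholds, not printed for every comparison. Hells is also named among the maintenance partners, after its values were seen, and likeness is given by the 3 highest r, except for 1 item that is not reported here. Genes of the marker and sort checks were named from their lists after their values were seen. Each test was repeated with TPM scaling, with quantile normalization, with a pseudocount of 0.1, without the filter and with one at 1 FPKM, with the prior variance held constant, with the replicate block, in 1 fit over all 5 sorted groups, by the adjusted p alone, without each library in turn and, chosen after seeing the data, the mean of the closest pair of libraries.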

Additional observations from a re-analysis of the deposited data

How the results depend on the processing

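Of 49 calls among 109 results for single genes of the set, 45 held under every alternative run other than the adjusted p alone, and none changed direction. The 4 that were lost under at least 1 were Tet1 in D5-LSKCD201+ against D5-LSKCD201- (-0.91 with quantile normalization, -0.96 with the closest pair averaged, -0.98 to -0.94 without D5-LSKCD201+ replicate 2 or D5-LSKCD201- replicate 1 or 3) and against FL-LSKCD201+ (-0.98 with TPM scaling, -0.83 with quantile normalization, -0.91 with the closest pair averaged, -0.96 to -0.89 without D5-LSKCD201+ replicate 2 or FL-LSKCD201+ replicate 2 or 3), Tet3 against D5-LSKCD201- (0.82 without D5-LSKCD201- replicate 2) and Tet2 in the coculture (1.27, adjusted p = 0.054 in limma, without 3D+0.1%gelatin replicate 2). Besides the adjusted p alone and the replicate block, new calls arose in D5-LSKCD201+ for Dnmt3l against FL-LSKCD201+ (2.11 with a pseudocount of 0.1, 1.14 with TPM scaling), where both groups are near 0, and Zfp57 against D5-LSKCD201- (-1.01 without D5-LSKCD201- replicate 2). In D5-LSKCD201- they arose for Trim28 against FL-LSKCD201+ (1.001 to 1.29 under a pseudocount of 0.1, TPM scaling and without D5-LSKCD201- replicate 2 or FL-LSKCD201+ replicate 1) and, against mESC, for Tet2 (-1.03 with quantile normalization) and Trim28 (-1.003 without D5-LSKCD201- replicate 3). In FL-LSKCD201+ they arose for Tet2 against mESC (-1.28 to -1.02 under 8 alternatives, from a main value just short of -1), Dnmt3a against mESC (-1.01 with TPM scaling) and Zfp57 against BM-LSKCD201+ (-1.44 with a pseudocount of 0.1, -1.04 with TPM scaling), and in BM-LSKCD201+ against mESC for Tet1 (-1.31 to -1.003 under 5 alternatives) and Tet2 (-1.02 with quantile normalization).

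Differences near 0 changed sign in 31 cases, none larger than 0.241 in size and none called, and the cause was not tested. With TPM scaling these were Dnmt1 (0.0299) and Dnmt3a (0.0566) in D5-LSKCD201+ against D5-LSKCD201-, Dnmt1 (0.0237) and Uhrf1 (0.13) against FL-LSKCD201+, Dnmt3a (0.0628) and Tet2 (0.0212) against BM-LSKCD201+, Dnmt3l in D5-LSKCD201- against mESC (-0.047), Dnmt3a in D5-LSKCD201- against BM-LSKCD201+ (0.00621) and Trim28 in the coculture (0.00797). With quantile normalization they were Tet2 (0.241) and Tet3 (0.0971) in D5-LSKCD201+ against BM-LSKCD201+, Dnmt3l in D5-LSKCD201- against mESC (-0.00979), Dnmt3a in D5-LSKCD201- against BM-LSKCD201+ (0.0109) and Trim28 in the coculture (0.0574). With the closest pair averaged, chosen after seeing the data, Dnmt1 in D5-LSKCD201+ against D5-LSKCD201- (0.00539) and Dnmt3a in the coculture (0.0224) turned. Leaving out each library in turn gave ranges across 0 in D5-LSKCD201+ for Dnmt1 (-0.175 to 0.013) and Dnmt3a (-0.0627 to 0.037) against D5-LSKCD201-, Uhrf1 (-0.142 to 0.122) against FL-LSKCD201+ and Tet2 (-0.263 to 0.0907) against BM-LSKCD201+, in D5-LSKCD201- for Uhrf1 (-0.0819 to 0.112) and Dnmt3l (-0.0122 to 0.0191) against mESC and Tet1 (-0.226 to 0.135) and Dnmt1 (-0.159 to 0.0283) against FL-LSKCD201+, and in the coculture for Dnmt3a (-0.36 to 0.0383) and Trim28 (-0.0266 to 0.0182).

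With the adjusted p alone the numbers of genes passing were 9349, 11496, 9823 and 11486 for D5-LSKCD201+ against D5-LSKCD201-, mESC, FL-LSKCD201+ and BM-LSKCD201+, 7418, 9680 and 11570 for D5-LSKCD201- against mESC, FL-LSKCD201+ and BM-LSKCD201+, 10813 and 12261 for FL-LSKCD201+ and BM-LSKCD201+ against mESC, 7446 for FL-LSKCD201+ against BM-LSKCD201+ and 891 for the coculture. The coculture count of 339 was 531 with a pseudocount of 0.1, and without single libraries it ran from 209 (3D+0.1%gelatin replicate 2 left out) to 444 (3D+OP9 replicate 3 left out). Quantile normalization moved the share of higher genes among those called in D5-LSKCD201- against mESC from 75.7% to 59.8%, and its median of all genes from 0.05 to -0.10. TPM scaling moved the median in D5-LSKCD201+ against FL-LSKCD201+ from -0.16 to -0.02. On FPKM plus 1, the share of Tet1 was 64.4% in mESC, 47.9% in D5-LSKCD201- and 52.7% in 3D+0.1%gelatin, that of Tet2 20.0% in FL-LSKCD201+, 27.4% in 3D+OP9 and 17.0% in 3D+0.1%gelatin, that of Tet3 6.15% in mESC and that of Dnmt3b 91.6% in 3D+OP9. By Spearman's rho, 0 of the 3 most similar genes were shared for Dnmt1 and Tet1, and 1 of 3 for Dnmt3a and Tet2.

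With the replicate number as a replicate block, 108 of 109 results kept their call and Dnmt3l in the coculture passed (1.10, adjusted p = 0.021, limma). The counts of calls with the replicate block were 3381 for D5-LSKCD201+ against D5-LSKCD201-, 2607 for FL-LSKCD201+ against BM-LSKCD201+ and 379 for the coculture. Outside FL-LSKCD201+ against BM-LSKCD201+ the libraries share only a number. Depth is unknown, so the counting error of levels under 1 FPKM, as for Dnmt3l in blood cells and Tet3 in mESC, could not be given. Having only 3 libraries per group limits every difference.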
